A study of Mus musculus with 7 samples.

Results

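The 40 genes described here encode the machinery that makes ribosomes in the nucleolus: subunits and initiation factors of RNA polymerase I, abundant nucleolar proteins, the cores of the small nucleolar ribonucleoproteins (snoRNPs), and assembly factors of the small and the large ribosomal subunit. They were taken as a list of gene symbols, matched to the Ensembl mouse genes of the expression table, and all 40 were found among its 48795 genes. The data were bulk RNA sequencing of splenic memory B cells (MBCs, 3 libraries) and plasma cells (PCs, 4 libraries). The comparison asks how far the ribosome production genes differ between these alternative products of an immune response. All libraries came from wild-type female C57BL/6 mice aged 8 to 12 weeks, given sheep red blood cells intravenously and examined 10 days later, so no group was unimmunized. Spleen cells were passed over CD43 magnetic beads to enrich B cells and then sorted by flow cytometry, MBCs as B220+ CD138neg IgDneg CD38+ CD273+ cells and PCs as B220lo CD138+ IgD- cells. Complementary DNA was made with a Nugen kit and sequenced on an Illumina HiSeq. The labels do not say whether replicates came from separate mice, so the p-values measure only the spread between these libraries.

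RNA polymerase I transcribes the ribosomal DNA repeats into 1 long precursor, which snoRNPs modify and the subunit processomes cut, fold and export. The pathway is a classical target of the transcription factor Myc and is used heavily by dividing cells, and PCs, which secrete antibody in bulk, are rich in ribosomes. In bulk samples of this kind, fewer cells of a type and less RNA per cell cannot be told apart.

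Levels are given as scaled TPM: the deposited TPM, a transcript abundance per gene length relative to a fixed library total, divided by a library factor that removes the weight of the immunoglobulin transcripts, which took 49.4 to 55.9% of the deposited TPM in PC libraries and 1.65 to 3.16% in MBC libraries. Fold changes are differences of log2(scaled TPM + 1), PC minus MBC, and are too small for genes of low level because of the added 1. Calls were made where the limma test, adjusted over all 11573 genes tested, gave an adjusted p under 0.05 together with a log2 fold change of at least 1 in size. At 1 TPM, a transcript of 1 kb stood on an estimated 6.20 to 11.6 reads in MBC and 9.32 to 16.4 reads in PC libraries. A floor of 3 such reads lay between 0.126 and 0.396 scaled TPM and covers counting error only.

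The library labelled MBC replicate 3 went against its label in part. The 8 memory markers summed to 555 scaled TPM in it and to 303 to 356 in PCs. They summed to 1395 and 2160 in MBC replicates 1 and 2. Ptprc alone made up 529 in MBC replicate 3, 262 to 315 in PCs, and 970 and 1526 in MBC replicates 1 and 2. The median log2 level of the 8 markers was 2.25 in MBC replicate 3 and at most 2.23 in PCs. It was 6.02 and 6.75 in MBC replicates 1 and 2. The sort markers Cd38 and Pdcd1lg2 (the gene of CD273) stood at 6.77 and 2.59 in MBC replicate 3. They stood at 130 and 43.3 in MBC replicate 1 and at 186 and 24.4 in MBC replicate 2 (PCs at most 21.3 and 2.84). Nt5e, at 5.26 in MBC replicate 3, was near the other MBC libraries (5.17 and 4.58) and above PCs (at most 3.88). Hhex, at 8.13 there, lay between the other MBC libraries (64.7 and 83.9) and PCs (at most 3.82). The 8 plasma cell markers of MBC replicate 3 summed to 337 scaled TPM, near the 158 and 197 of the other MBC libraries and far from the 13153 to 23555 of PCs. Its 7 germinal center markers summed to 664 (other MBC libraries 244 and 270, PCs 70.3 to 139) and its 10 proliferation genes to 1135 (other MBC libraries 210 and 294, PCs 520 to 793). Among markers of other cells, the 6 erythroid genes summed to 4524 in MBC replicate 2 and to at most 122 elsewhere. The 8 myeloid genes summed to at most 40.2. The 8 T cell genes summed to 70.9 to 95.5 in PCs and to at most 24.1 in MBCs. Cd28, which PCs are known to express, made up 41.9 to 55.7 of the PC sums. Cd3e stood at 3.86 to 14.2 in PCs and Trac at up to 23.1, against at most 0.658 and 0.234 in MBCs. With all 7 libraries Cd28, Cd3e and Trac were called higher in PCs (limma adjusted p = 5.56e-05, 0.0081 and 0.0191). Lck was not called, and it made up 22.95 of the highest MBC sum. MBC replicate 3 is also the only MBC library with its title prefix, which among PCs only replicate 4 carries. What the prefix marks is not stated, so its part and that of the library itself cannot be told apart. The counts of calls below are therefore given with and without MBC replicate 3. The part that these markers had in the members' values was not tested.

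None of the 40 members was called between PCs and MBCs when all 7 libraries were used, in either direction, where 8.55% of all genes tested were called (6.41% higher and 2.14% lower in PCs, or 7.04% once immunoglobulin genes were not counted). At an unadjusted limma p under 0.05 there were 5 members (12.5%), against 24.2% of all genes tested, and the lowest adjusted p of a member was 0.118. The median log2 fold change of the members was 0.18, beside 0.14 for all genes tested. It turned negative with TPM as deposited (-0.93, all genes -0.91), with immunoglobulin genes removed (-0.07, all genes -0.11) and with quantile normalization (-0.05, all genes -0.06). It stayed positive, at 0.08, with immunoglobulin, mitochondrial and ribosomal RNA genes removed. With the main scaling 22 members had a positive and 18 a negative log2 fold change, from -1.03 for Wdr43 to 1.92 for Wdr74. Of the 40, 16 had the other sign under at least 1 other scaling, all 16 of them with TPM as deposited. The other sign was seen for 5 with immunoglobulin genes removed and 4 with quantile normalization. It was seen for 0 with mitochondrial and ribosomal RNA genes removed as well as immunoglobulin genes. A log2 fold change of 1 or more in size was seen for 9 members (22.5%), against 36.5% of all genes tested, and without MBC replicate 3 for 12 (30.0%), against 48.0%. With TPM as deposited 11 members were called, all lower in PCs, where 26.1% of all genes were called lower. At or below a log2 fold change of -1 lay 2.5% of the members and 13.2% of all genes tested, and at or below 1 lay 80.0% and 76.7%.

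Leaving out the library labelled MBC replicate 3, 6 members were called (15.0%), against 23.3% of all genes tested. The 5 called higher in PCs were Ltv1, Rrn3, Ebna1bp2, Wdr74 and Gar1 (15.1% of all genes called higher), and the 1 called lower was Polr1a (8.2% called lower). The members' median log2 fold change was then 0.42, beside 0.21 for all genes, with 23 positive and 17 negative. Without this library 10 members (25.0%) reached an unadjusted limma p under 0.05, against 37.6% of all genes tested, so the members' shares lay below the background with and without it.

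**Figure D1:**
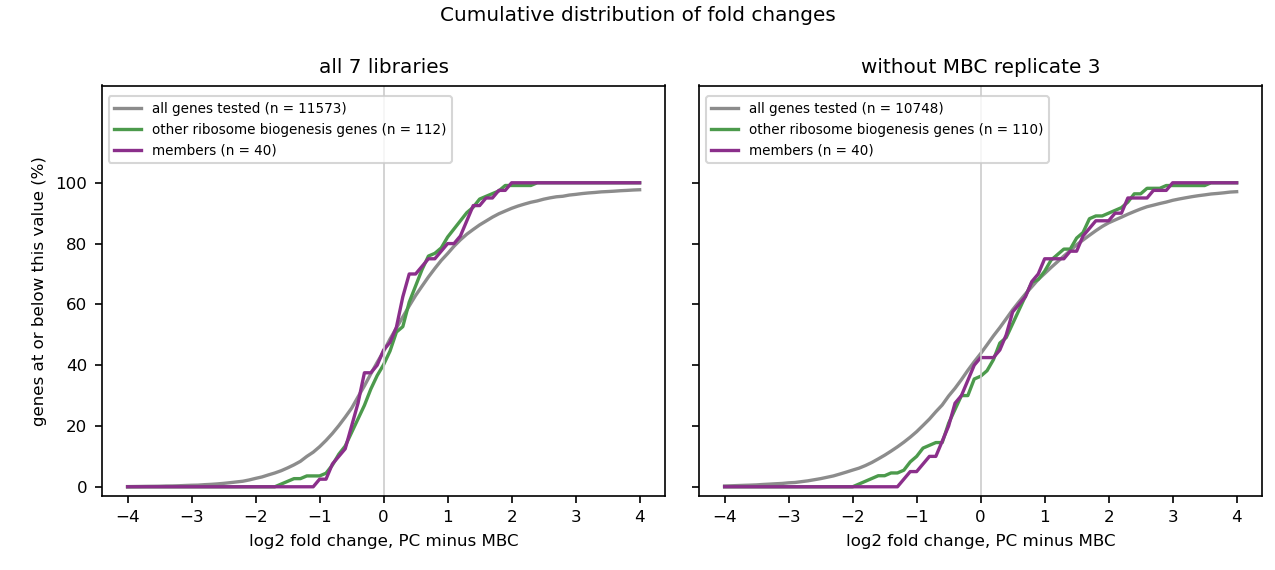
Cumulative share of genes (vertical axis, percent) at or below each log2 fold change, PC minus MBC (horizontal axis), for the 40 members, the other ribosome biogenesis genes and all genes tested, with all 7 libraries (left) and without MBC replicate 3 (right). The members' curve has a range of -1.03 to 1.92 with all libraries, and since the members are among all genes it cannot reach further than theirs.

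The intervals were wide. The 95% interval of a member's log2 fold change reached a median of 1.22 to either side of its value, and for only 1 of the 40 members did the whole interval lie between -1 and 1 (2.7% of all genes tested), so for the other 39 the interval held a doubling in at least 1 direction. Without MBC replicate 3 there was again 1 such member. The spread was mostly larger among the MBC libraries: the SD of a member's log2 level had a median of 0.87 in MBCs and 0.40 in PCs (all genes 0.91 and 0.47), and it was larger in MBCs for 33 of 40 members (82.5%, against 77.5% of all genes). Mitochondrial transcripts, which can mark RNA or cell quality, took 33.2% and 33.5% of the deposited TPM in MBC replicates 1 and 2, 19.7% in MBC replicate 3 and 8.10 to 9.80% in PCs, and their part in the spread and in the group differences was not tested.

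**Figure D2:**
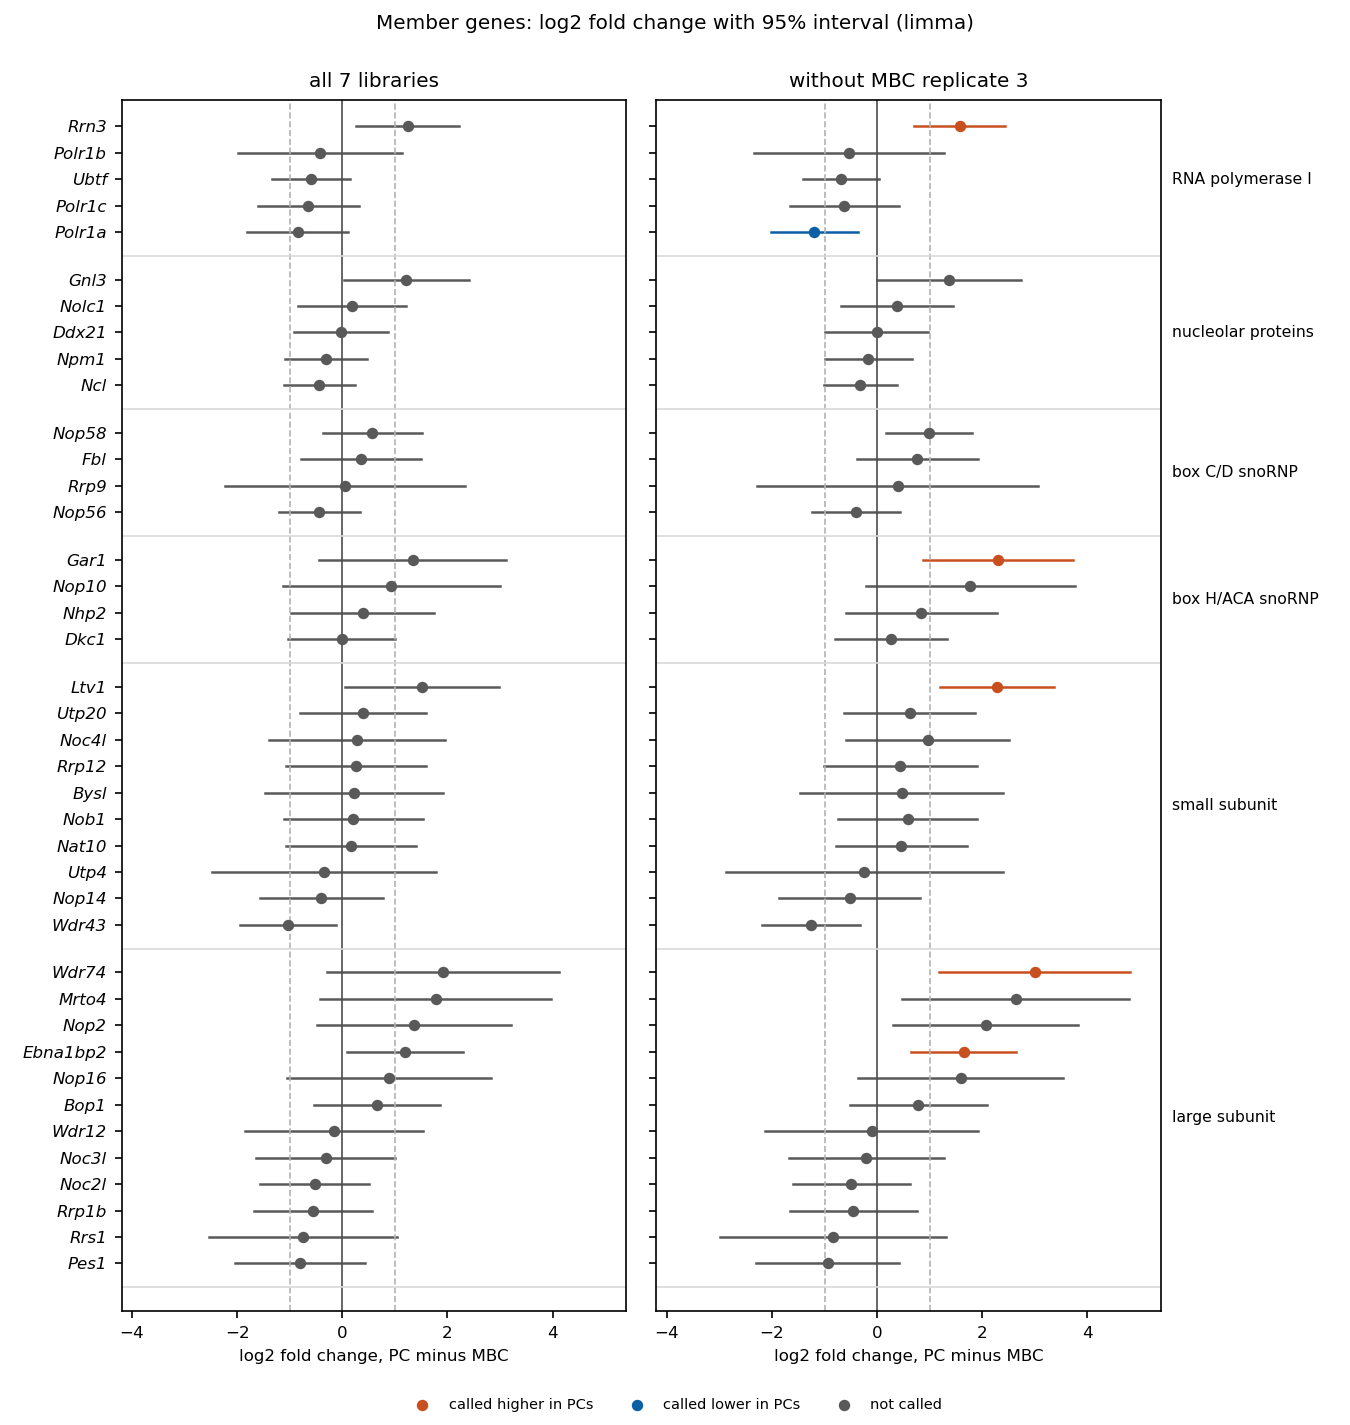
Log2 fold change, PC minus MBC, of each member (point) with its 95% limma interval (line), ordered by role, with all 7 libraries (left) and without MBC replicate 3 (right), where dashed lines mark -1 and 1. With all libraries no member is called, and without MBC replicate 3 Rrn3, Gar1, Ltv1, Wdr74 and Ebna1bp2 are called higher and Polr1a lower.

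Within the RNA polymerase I group the genes for the largest enzyme subunit (Polr1a) and the DNA-binding factor (Ubtf) stood lower in every PC library than in any MBC library, and the gene for the factor that brings the enzyme to the promoter (Rrn3) stood higher, though none was called with all 7 libraries. Polr1a, Polr1b, Polr1c and Ubtf had a negative log2 fold change under every scaling tried, that of Polr1b resting on MBC replicate 2, and Rrn3 a positive one under every scaling, though it was only 0.03 with TPM as deposited. For 3 of the 5 (Polr1a, Ubtf and Rrn3) the PC and MBC libraries did not overlap, and of the other 35 members that held only for Wdr43, making 4 of 40 (10.0%) against 21.7% of all genes tested.

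Rrn3 encodes the initiation factor that joins RNA polymerase I to the promoter complex. In order of replicate number its MBC levels were 6.84, 4.50 and 12.3 scaled TPM, and its PC levels 17.6, 18.1, 19.2 and 19.95, the order kept for every gene here. Every PC library lay above every MBC library, the PC values were tightly grouped (18.7 ± 1.05, SD, n = 4), and MBC replicate 3 lay between the groups. The log2 fold change was 1.24 (SE 0.44, 95% interval 0.27 to 2.22, limma adjusted p = 0.118) with all libraries, and 1.57 (SE 0.37, limma adjusted p = 0.0223) without MBC replicate 3.

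Polr1a encodes the largest, catalytic subunit of the enzyme. It stood at 27.8 and 26.1 scaled TPM in MBC replicates 1 and 2, at 12.49 in MBC replicate 3, and at 8.997, 12.47, 12.2 and 11.3 in PCs. The first pair of MBC libraries lay far above the PC range, whereas MBC replicate 3 cleared the highest PC library only in the second decimal. The log2 fold change was -0.85 (SE 0.43, limma adjusted p = 0.260), and -1.19 (SE 0.36, limma adjusted p = 0.0461) without MBC replicate 3. With TPM as deposited it was -2.09, which limma called, but there the median of all genes was itself -0.91.

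Ubtf encodes the upstream binding factor, an HMG-box protein that holds active ribosomal DNA open. Its levels were 30.8, 30.4 and 25.2 scaled TPM in MBCs (28.8 ± 3.14, SD, n = 3) and 17.7, 18.5, 19.4 and 19.0 in PCs (18.7 ± 0.759, SD, n = 4). It was the most even of the polymerase I genes within each group, and its groups were separated also by MBC replicate 3. Its difference was -0.59 on the log2 scale (SE 0.33, 95% interval -1.35 to 0.16, limma adjusted p = 0.314), below the size needed for a call. Without MBC replicate 3 it was -0.68 (limma adjusted p = 0.152).

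Polr1b, which forms the catalytic center together with Polr1a, had 1.37, 17.0 and 4.08 scaled TPM in the MBC libraries and 2.85, 2.90, 4.77 and 3.68 in the PC libraries. The MBC values alone spanned both sides of the PC range, and the value of -0.42 on the log2 scale (SE 0.70, limma adjusted p = 0.759) became 0.34 when MBC replicate 2 was left out. Polr1c, a subunit shared with RNA polymerase III, had 12.0, 27.7 and 18.9 in MBCs and 11.6, 10.15, 10.15 and 14.6 in PCs. MBC replicate 1 fell inside the PC range and the others above it, at -0.64 on the log2 scale (SE 0.43, limma adjusted p = 0.393).

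**Figure D3:**
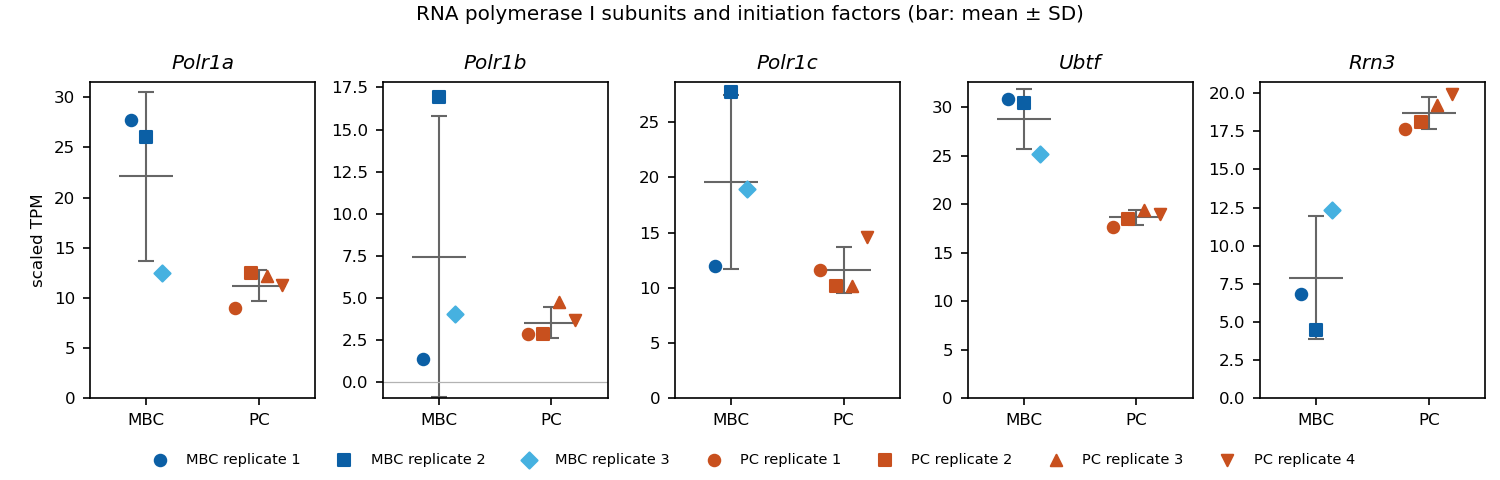
Scaled TPM (vertical axis, linear) of the 5 RNA polymerase I members in each of the 3 MBC and 4 PC libraries, with each group's mean and SD as bars. Polr1a and Ubtf are lower and Rrn3 is higher in the PC libraries than in every MBC library, while Polr1b and Polr1c overlap between the groups.

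A ratio of these genes within a library is not altered by dividing the library by 1 factor, although quantile normalization can alter it. The ratio of Rrn3 to Polr1a was 0.246, 0.172 and 0.988 in the MBC and 1.96, 1.45, 1.58 and 1.77 in the PC libraries. The ratio of Rrn3 to Ubtf was 0.222, 0.148 and 0.491 in MBCs and lay between 0.979 and 1.05 in PCs. Both ratios were higher in every PC library than in any MBC library. This had to be so, since Rrn3 was higher, and Polr1a and Ubtf lower, in every PC library than in any MBC library. The ratios were chosen after the values were seen and are descriptions with no test.

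The promoters of Rrn3 and Polr1a are shown because these genes had the highest and the lowest fold changes in the polymerase I group and differ in the E-box CACGTG, the letters that Myc with its partner Max is known to bind. The windows are the 250 bases before the annotated start (RefSeq, GRCm38.p6), both on the plus strand, Rrn3 at chr16:13780449-13780698 and Polr1a at chr6:71908803-71909052. Capitals mark CACGTG, which reads the same on both strands. It occurs at 2 places in the Rrn3 window, beginning 215 and 48 bases before the start, and at none in the Polr1a window.
Rrn3: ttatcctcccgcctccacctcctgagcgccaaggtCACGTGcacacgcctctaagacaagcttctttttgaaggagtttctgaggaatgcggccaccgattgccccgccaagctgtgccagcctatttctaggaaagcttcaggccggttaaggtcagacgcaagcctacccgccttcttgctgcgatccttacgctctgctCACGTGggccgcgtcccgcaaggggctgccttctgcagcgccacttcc
Polr1a: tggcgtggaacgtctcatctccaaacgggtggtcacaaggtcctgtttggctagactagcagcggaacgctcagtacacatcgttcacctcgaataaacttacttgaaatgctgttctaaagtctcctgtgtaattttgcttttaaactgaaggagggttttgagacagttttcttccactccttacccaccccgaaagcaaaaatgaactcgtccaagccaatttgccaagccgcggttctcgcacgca

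Among the 35 members with a promoter window (250 bases before to 50 after the start), 7 held CACGTG (20%), beside 18 of 93 other ribosome biogenesis genes (19.4%), 963 of 7889 genes tested (12.2%) and 2187 of 27025 genes of the table with a window (8.09%). Npm1, Fbl, Rrp12, Bop1 and Rrs1 had no entry. Besides Rrn3 the members were Nop2, Utp4, Ltv1, Utp20, Pes1 and Wdr43, and the 30 bases around each match follow, with the match in capitals, so that the flanks can be compared. The stretch of Nop2 is on the plus strand at chr6:125131811-125131840, that of Utp4 on the plus strand at chr8:106893643-106893672 and that of Ltv1 on the minus strand at chr10:13193092-13193121. The stretch of Utp20 is on the minus strand at chr10:88826765-88826794, that of Pes1 on the plus strand at chr11:3963965-3963994 and that of Wdr43 on the plus strand at chr17:71616220-71616249. The match lies 60 bases before the start in Nop2 and begins within 3 to 38 bases after it in the other genes.
Nop2: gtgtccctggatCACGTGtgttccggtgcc
Utp4: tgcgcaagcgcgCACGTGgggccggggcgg
Ltv1: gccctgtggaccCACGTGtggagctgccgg
Utp20: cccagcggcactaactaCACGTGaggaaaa
Pes1: ccctaggcagggCACGTGcgggaggaagta
Wdr43: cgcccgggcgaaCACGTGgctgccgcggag

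These 7 genes did not share a direction. Their log2 fold changes were 1.52 for Ltv1, 1.36 for Nop2, 1.24 for Rrn3, 0.39 for Utp20, -0.35 for Utp4, -0.81 for Pes1 and -1.03 for Wdr43, so that they include both the lowest value of all 40 members and some of the highest. A match of letters is a description of the window, not evidence of binding. Myc itself had 45.5, 29.1 and 22.01 scaled TPM in MBCs and 39.8, 10.8, 10.5 and 20.6 in PCs. The groups overlapped through PC replicate 1, and the log2 fold change was -0.78 (SE 0.53, limma adjusted p = 0.406).

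The 5 nucleolar proteins included the most abundant members. Npm1, which encodes the histone and ribosome chaperone nucleophosmin, had 677, 644 and 874 scaled TPM in MBCs and 519, 519, 465 and 943 in PCs. Among PCs replicates 1 to 3 were lower than all MBC libraries and replicate 4 was higher than all of them, and the log2 fold change was -0.31 (SE 0.35, limma adjusted p = 0.639). Ncl, which encodes the RNA-binding nucleolin, had 200.5, 233 and 274 in MBCs and 146, 149.97, 175 and 233 in PCs. Its groups overlapped again only through PC replicate 4, at -0.43 on the log2 scale (SE 0.30, limma adjusted p = 0.421). Both genes were called lower in PCs with quantile normalization, Npm1 at -1.94 (limma adjusted p = 0.0103) and Ncl at -1.21 (limma adjusted p = 0.0412), a setting under which 3.97% of all genes were called lower. The ratio of Npm1 to Ncl ran from 2.76 to 3.38 in MBC libraries and from 2.66 to 4.05 in PC libraries.

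Gnl3, the gene of the GTP-binding protein nucleostemin, differed in the other direction. It had 25.1, 4.70 and 16.1 scaled TPM in MBCs and 23.0, 36.1, 29.3 and 36.9 in PCs. The groups overlapped because MBC replicate 1 exceeded PC replicate 1, and the log2 fold change was 1.22 (SE 0.53, limma adjusted p = 0.197), or -0.03 with TPM as deposited. Ddx21, an RNA helicase, and Nolc1, a snoRNP chaperone, had log2 fold changes of -0.03 and 0.19. Over the 5 genes the median was -0.03, and -0.01 without MBC replicate 3.

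**Figure D4:**
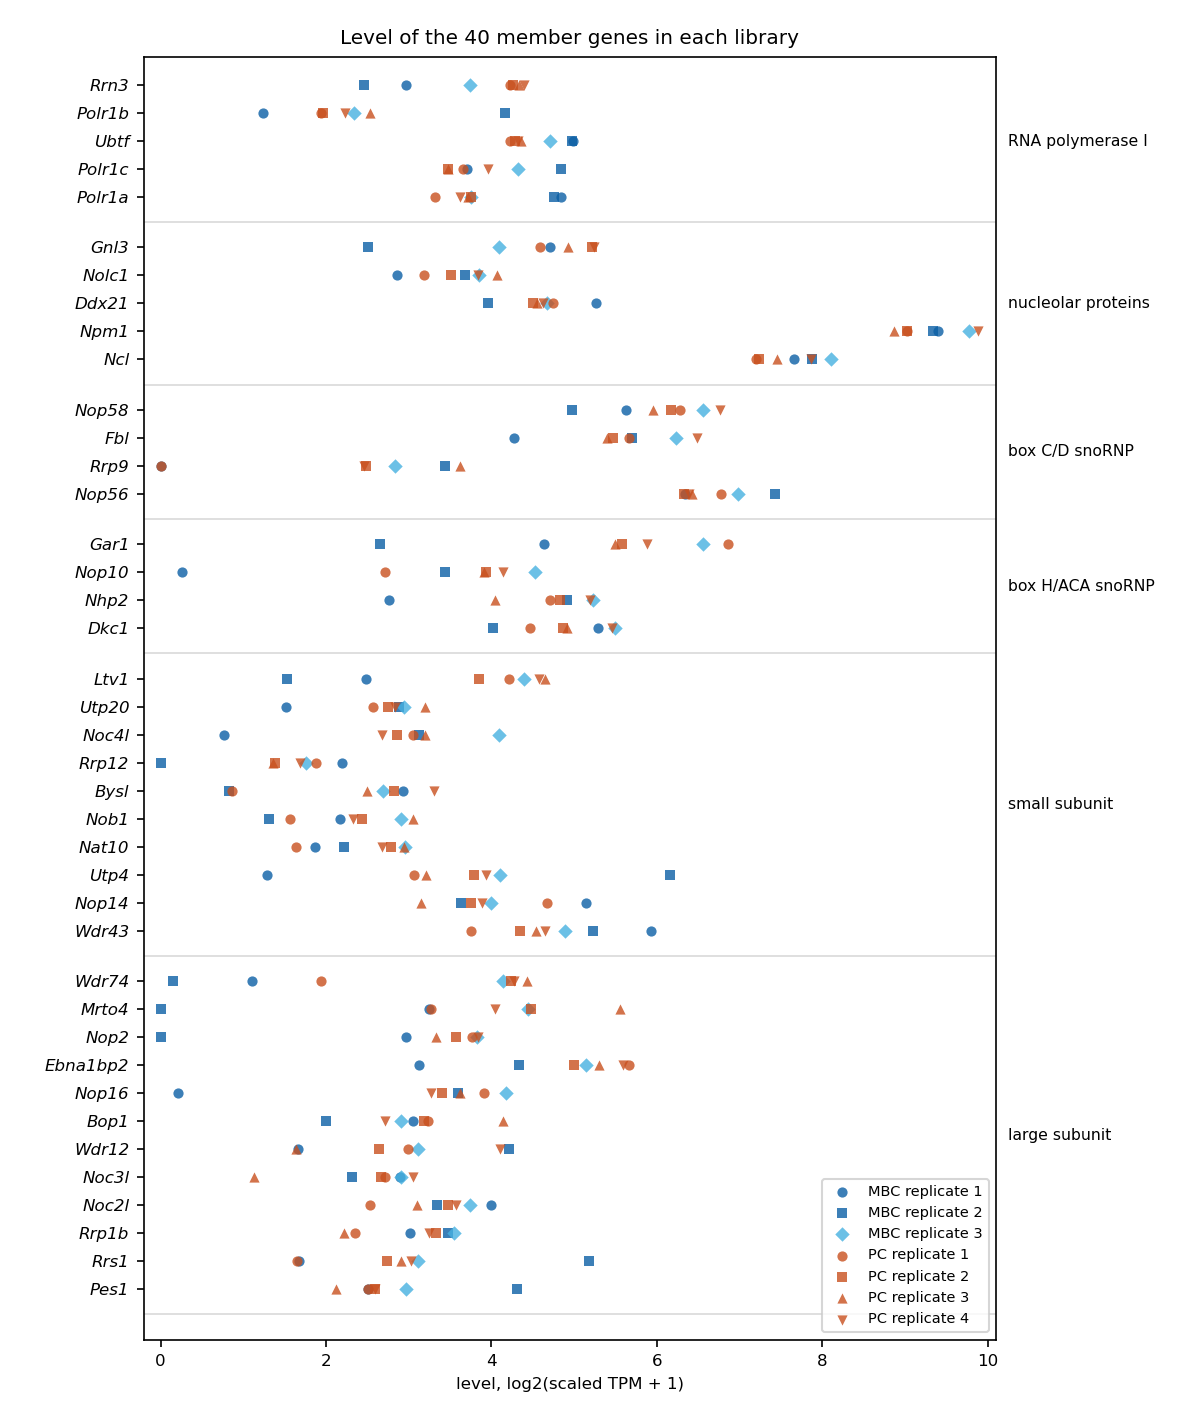
Level of each of the 40 members as log2(scaled TPM + 1) (horizontal axis) in each of the 7 libraries, grouped by role and ordered within a role by fold change. Npm1 and Ncl are the highest members in every library, and several members are near 0 in MBC replicates 1 and 2.

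Box C/D snoRNPs place methyl groups on ribosomal RNA and, as the U3 particle, guide early cleavage. Nop56 had 80.1, 171.5 and 125 scaled TPM in MBCs and 108, 79.5, 85.2 and 83.1 in PCs. MBC replicate 1 lay inside the PC range and the other MBC libraries above it, at -0.44 on the log2 scale (SE 0.34, limma adjusted p = 0.478). Nop58, which pairs with Nop56 in the same particle, had 48.4, 30.4 and 93.5 in MBCs and 76.9, 70.9, 60.9 and 108 in PCs. MBC replicates 1 and 2 lay below the PC range and MBC replicate 3 inside it. The fold change, 0.57 on the log2 scale (SE 0.42, limma adjusted p = 0.448), was -0.73 with TPM as deposited. The ratio of Nop56 to Nop58 was 1.66, 5.65 and 1.34 in MBCs and 0.769 to 1.41 in PCs, so partners of 1 particle were not in a fixed proportion in MBC replicate 2. Fbl, the methyltransferase of the particle, had a log2 fold change of 0.35 and Rrp9, the U3-specific protein, 0.05, and Rrp9 was listed at 0 in MBC replicate 1 and PC replicate 1.

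Box H/ACA snoRNPs convert uridine in ribosomal RNA to pseudouridine. Dkc1, their pseudouridine synthase, had 38.1, 15.3 and 43.9 scaled TPM in MBCs and 21.2, 28.2, 29.0 and 43.1 in PCs. The MBC values enclosed those of PCs, and the log2 fold change was -0.01 (SE 0.45, limma adjusted p = 0.994). Gar1, a protein of the same particle, had 23.9, 5.28 and 93.2 in MBCs and 115, 47.0, 43.9 and 57.75 in PCs. MBC replicates 1 and 2 lay below every PC library and MBC replicate 3 above 3 of the 4. Its log2 fold change was 1.34 (SE 0.79, limma adjusted p = 0.339) and, without MBC replicate 3, 2.29 (SE 0.62, limma adjusted p = 0.0329). Nop10, the smallest core protein, had 0.198, 9.85 and 22.1 in MBCs and 5.58, 14.3, 14.1 and 16.7 in PCs, where the value of MBC replicate 1 was under the floor of 0.266. Its log2 fold change was 0.94 (SE 0.92, limma adjusted p = 0.579), but -0.32 without MBC replicate 1 and -0.08 with TPM as deposited.

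The box H/ACA group had the highest median log2 fold change of the roles, 0.66 over 4 genes (1.304 without MBC replicate 3), although it was -0.47 with TPM as deposited, and the polymerase I group had the lowest, -0.59 over 5 genes (-0.63 without MBC replicate 3). The medians of the remaining roles were 0.20 for the box C/D, 0.22 for the small subunit and 0.26 for the large subunit genes, and with TPM as deposited all 3 were negative (-0.84, -0.81 and -0.89). With immunoglobulin genes removed the small subunit median was -0.02, and with quantile normalization it was -0.14. Differences between roles were not tested.

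Of the 10 factors of the small subunit, 7 had a positive and 3 a negative log2 fold change. Wdr43, a component of the processome that gathers on the nascent precursor, had 60.04, 36.6 and 28.6 scaled TPM in MBCs and 12.5, 19.3, 22.2 and 24.01 in PCs. All MBC libraries lay above all PC libraries, with MBC replicate 3 nearest to them. The log2 fold change was -1.03 (SE 0.41, 95% interval -1.94 to -0.12, limma adjusted p = 0.158), and -1.26 (limma adjusted p = 0.0559) without MBC replicate 3. Ltv1, which helps the small subunit precursor to mature and leave the nucleus, had 4.57, 1.87 and 20.01 in MBCs and 17.5, 13.4, 24.1 and 22.8 in PCs. MBC replicates 1 and 2 lay far below the PC libraries and MBC replicate 3 among them. For Ltv1 the log2 fold change was 1.52 (SE 0.65, limma adjusted p = 0.191) and 2.28 (SE 0.47, limma adjusted p = 0.0130) without MBC replicate 3, the lowest adjusted p of any member in that setting.

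The other 8 small subunit factors had log2 fold changes from -0.40 (Nop14) to 0.39 (Utp20). Several of them were far apart between MBC replicates 1 and 2. Utp4, for example, stood at 1.44 and 70.2 scaled TPM there and at 7.36 to 14.3 in PCs, and Rrp12 was listed at 0 in MBC replicate 2 and stood at 1.56 to 2.69 in PCs, both examples being chosen after the values were seen.

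Of the 12 factors of the large subunit, 6 had a positive and 6 a negative log2 fold change. Ebna1bp2, a scaffold of early large subunit precursors, had 7.69, 19.2 and 34.5 scaled TPM in MBCs and 49.8, 30.9, 38.5 and 47.2 in PCs. Only MBC replicate 3 reached the PC range. The log2 fold change was 1.19 (SE 0.49, limma adjusted p = 0.178) and 1.65 (SE 0.43, limma adjusted p = 0.0300) without MBC replicate 3, while with TPM as deposited it was -0.08. Wdr74, which acts in the remodelling of large subunit precursors, had 1.15, 0.115 and 16.6 in MBCs and 2.85, 17.8, 20.5 and 18.4 in PCs. The values of MBC replicates 1 and 2 were the lowest, that of MBC replicate 2 being under the floor of 0.301, and PC replicate 1 was close to them. Its value was 1.92 on the log2 scale (SE 0.99, limma adjusted p = 0.272) and 2.999 (SE 0.78, limma adjusted p = 0.0303) without MBC replicate 3.

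Pes1 encodes a subunit of the PeBoW complex, which acts on the internal spacer of the large subunit precursor. It had 4.67, 18.8 and 6.83 scaled TPM in MBCs and 4.70, 5.01, 3.35 and 5.02 in PCs. MBC replicate 2 stood apart and MBC replicate 1 lay inside the PC range, at -0.81 on the log2 scale (SE 0.55, limma adjusted p = 0.411). Its partners Bop1 and Wdr12 had log2 fold changes of 0.67 and -0.15, so the 3 genes of the complex did not share a sign. Under TPM as deposited all 3 were negative (-1.95, -0.49 and -1.28). The remaining large subunit factors ranged from -0.75 (Rrs1) to 1.78 (Mrto4), and Nop2 and Mrto4, singled out after their values were seen, were both listed at 0 in MBC replicate 2.

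Across all 40 members the library labelled MBC replicate 3 was the highest MBC library for 22 (55.0%), against 35.7% of all genes tested. It lay within the PC range for 21 members (52.5%, all genes 50.2%), compared with 16 for MBC replicate 1 (40%, all genes 28.8%) and 13 for MBC replicate 2 (32.5%, all genes 24.2%). Pearson's r of the log2 levels was computed across the 40 genes and so not across replicates. With the PC libraries it was 0.91 to 0.97 for MBC replicate 3 (all genes tested 0.70 to 0.78). It was 0.69 to 0.79 for MBC replicate 1 and 0.51 to 0.63 for MBC replicate 2. Among MBCs it was 0.55 for replicates 1 and 2 (all genes 0.68), 0.75 for 1 and 3, and 0.67 for 2 and 3. Between PC libraries it was 0.82 to 0.98 (all genes 0.85 to 0.96). Values at or under the floor were found for 3 members in MBC replicate 1, for 4 in MBC replicate 2, for 1 in PC replicate 1 and for none in the other libraries. The floors lay at 0.266, 0.301 and 0.126 scaled TPM for MBC replicates 1, 2 and 3 and at 0.255 to 0.396 for PCs. The part of depth in the members' spread was not tested.

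Summed over the 40 members, scaled TPM came to 1428, 1604 and 2054 in MBCs and to 1389, 1342, 1339 and 2026 in PCs. The highest sums were those of MBC replicate 3 and PC replicate 4, which share a title code, and Npm1 made up much of each sum. Read as deposited TPM, the members took 0.260, 0.238 and 0.421% of MBC libraries and 0.0883, 0.0903, 0.109 and 0.145% of PC libraries. That lower share in PCs stood beside immunoglobulin transcripts at 49.4% or more of each PC library. The median member ranked at percentile 48.4, 59.9 and 71.5 of the tested genes in MBCs and at 51.3, 62.6, 63.4 and 66.3 in PCs, so by rank the groups overlapped.

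Annotated transcript length moved with the fold change, though gene-level values do not show which transcript of a gene was in use. The 40 members were divided at the median of their longest annotated coding transcript (GENCODE M21), 2753 bases. The median log2 fold change was 0.37 for the 20 shorter and -0.09 for the 20 longer genes, beside 0.42 and -0.03 for the shorter and longer of all 9567 tested genes with a coding transcript. Without MBC replicate 3 the medians were 0.81 and -0.05 (all genes 0.66 and -0.09). Over the 40 genes Spearman's rho of length and log2 fold change was -0.36 with all libraries and -0.41 without MBC replicate 3 (all genes -0.26 and -0.31), given as a description since all genes share the same libraries. Polr1a, at 9216 bases, is the longest of the 6 genes called without MBC replicate 3, and the 5 called higher measured 1204 to 3582 bases. The division was chosen after the values were seen, and the part of length in the fold changes was not tested.

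**Figure D5:**
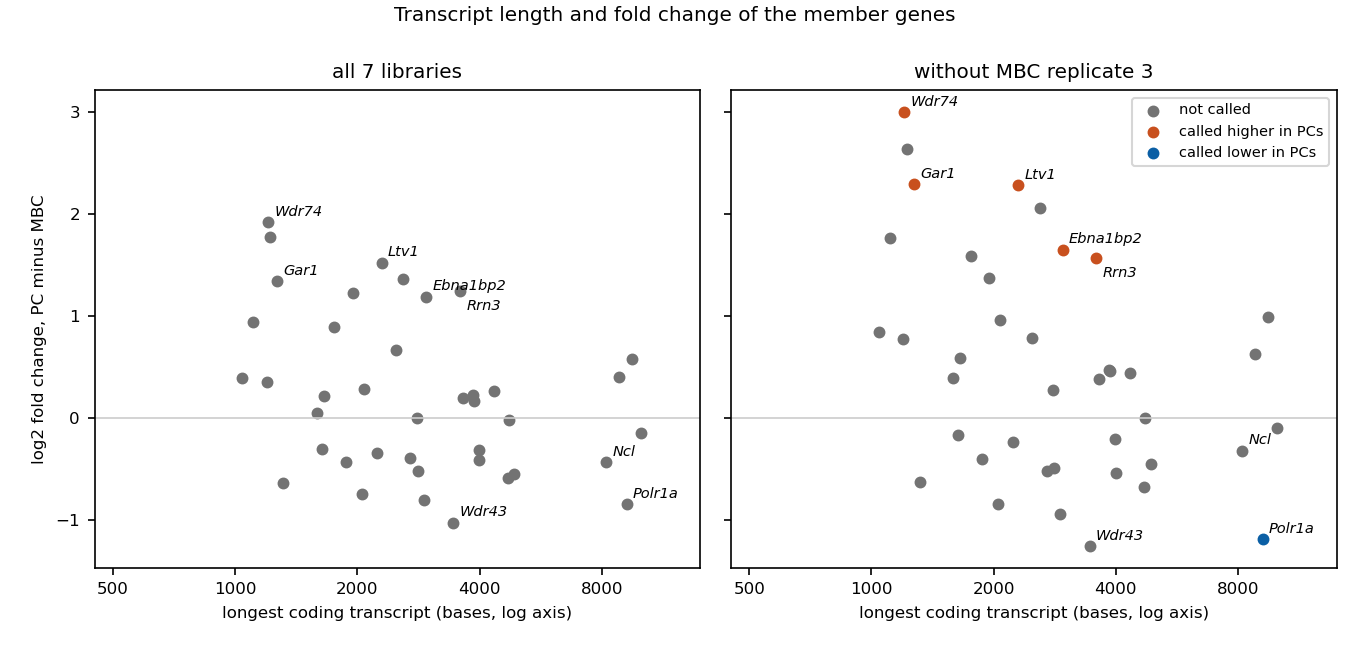
Log2 fold change, PC minus MBC (vertical axis), of the 40 members against the length of the longest annotated coding transcript in bases (horizontal log axis), with all 7 libraries (left) and without MBC replicate 3 (right). Points above a log2 fold change of 1 all lie below 4000 bases, and Polr1a, at 9216 bases, is among the lowest.

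Several members carry the genes of the small nucleolar RNAs that their own pathway uses. By the GENCODE M21 annotation 6 of the 40 (15.0%) contain snoRNA genes, against 183 of 9584 tested protein-coding genes (1.91%). They are Nop56, Nop58, Ncl, Gnl3, Wdr43 and Dkc1, with 19 snoRNA genes in all. Every one of the 19 was listed at 0 in all 7 libraries, so these libraries hold no measurement of the guides beside their host genes. The hosts had log2 fold changes from -1.03 (Wdr43) to 1.22 (Gnl3), with no shared sign. Exons of 14 members overlap a gene on the opposite strand, Polr1a and Wdr43 among them, and the share among all genes tested was not counted. Whether the counting used strand is not given in the sources used here, so the reads of such pairs may not have been told apart.

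The rest of the pathway was examined in the same way. Of 114 further ribosome biogenesis genes 113 were matched and 112 tested, and none was called with all 7 libraries (background 8.55%). At an unadjusted limma p under 0.05 there were 9 (8.04%, all genes 24.2%), and the lowest adjusted p was 0.0699, for Mdn1. Their median log2 fold change was 0.17, with 67 positive and 45 negative, and it was -0.91 with TPM as deposited. Without MBC replicate 3, 12 of 110 were called higher and 5 lower, 15.5% in all against 23.3% of all genes tested, 32 (29.1%, all genes 37.6%) had an unadjusted limma p under 0.05, and the median was 0.42 with 70 positive and 40 negative. The highest log2 fold changes were those of Eif6, which keeps new large subunits from joining too early (2.36, limma adjusted p = 0.135), and of the small subunit processome factors Ngdn (1.87, limma adjusted p = 0.192) and Utp11 (1.82, limma adjusted p = 0.201). The lowest were those of Rrp7a (-1.60, limma adjusted p = 0.351) and Utp14a (-1.54, limma adjusted p = 0.0769), both small subunit factors, and Mdn1 (-1.45), the large ATPase that strips factors from large subunit precursors. These 6 kept their sign under every scaling tried.

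In Eif6, as in Ltv1 and Gar1, MBC replicates 1 and 2 lay below every PC library. It had 1.44, 4.63 and 45.98 scaled TPM in MBCs and 44.9, 59.7, 25.0 and 52.0 in PCs, low in MBC replicates 1 and 2 and at the PC level in MBC replicate 3. Mdn1 resembled Polr1a, with 58.6, 45.0 and 20.9 in MBCs and 11.9, 14.1, 13.0 and 14.5 in PCs. All its MBC libraries lay above all PC libraries, MBC replicate 3 being the closest.

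Proliferation genes, which rise with ribosome production in dividing cells, are given beside these values. Mki67, a marker of cycling cells, had 41.2, 62.0 and 269 scaled TPM in MBCs and 190.0, 188, 238 and 195 in PCs. MBC replicate 3 had the highest level of all 7 libraries and the other MBC libraries the lowest. Its log2 fold change was 1.2 (SE 0.56, limma adjusted p = 0.237) and 1.97 (limma adjusted p = 0.0036) without MBC replicate 3, and -0.13 with TPM as deposited. None of the 10 proliferation genes was called with all libraries (background 8.55%), with 0 at an unadjusted limma p under 0.05 (all genes 24.2%). Without MBC replicate 3, 5 were called higher (15.1% of all genes called higher) and 8 had an unadjusted limma p under 0.05 (all genes 37.6%). Their median log2 fold change was 0.79 with all libraries, 1.54 without MBC replicate 3 and -0.46 with TPM as deposited.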

How the data were processed

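Bulk RNA-seq of 3 MBC and 4 PC libraries was analysed from 1 table in which the authors deposited TPM for 48795 genes. The submitters' processing notes name STAR 2.5.2a, RSEM 1.3.0, DESeq2 1.18.1 and the build GRCm38. The annotation release is not given in the sources used here. The sample descriptions gave group and replicate number. Scaling used the 9305 genes above 0 in every library: a library's deposited TPM values were divided by the median of their ratios to the gene-wise geometric means. The limma test (version 3.58.1, R 4.3.3, lmFit and eBayes with a mean-variance trend) was run on log2(scaled TPM + 1) for the 11573 genes with 1 TPM or more in 3 or more libraries, with no covariate and Benjamini-Hochberg adjustment. All 40 members passed this filter.

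The limma test and the calling rule were tried on simulated log2 values of 11573 genes for PCs and MBCs, without the scaling and the filter. Of genes raised in PCs by 4 on the log2 scale 76 of 100 were called, and of those raised by 2, 23 of 100. Among unchanged genes 6 of 11373 were called. Both groups were drawn with the same SD, whereas in the data the median SD was 0.91 in MBCs and 0.47 in PCs. Fewer genes were changed than were called in the data, so these rates need not hold there. TPM holds no read totals, so depth was estimated, after the values were seen, from genes with a single transcript, whose low TPM values lay near whole reads (within 0.15) in 73.1 to 81.8% of cases, where 30.0% would by coincidence. In 4 simulated libraries the error was at most 1.79%. No 2 libraries held the same values: at least 99.3% of genes above 0 differed in any pair.

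The text gives all 5 polymerase I members and, of each other role, the 2 members with the lowest limma p, the one with the highest mean and the one with the lowest fold change. Of the other ribosome biogenesis genes it gives the 3 highest and the 3 lowest fold changes, with Mki67 and Myc besides. The members and all lists were chosen with earlier results of these data known. Symbols and overlaps came from GENCODE M21 and promoters from RefSeq. The alternatives were other scalings, pseudocounts and filters, no variance trend, leaving out each library, and title prefix, code or replicate number as a term or block. Python 3.11.15, pandas 2.3.3, numpy 2.4.6 and matplotlib 3.10.9 were used for the remaining steps.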

Additional observations from a re-analysis of the deposited data

Results flagged for a closer look

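In a check of the 4 PC libraries for each of the 40 members, 2 genes had 1 library set so far from the rest of its group that the gap passed Dixon's 95% critical value. Chance flags about 1 in 20 groups, which is 2 of 40. Npm1 stood at 943 scaled TPM in PC replicate 4 and at 465 to 519 in the other PC libraries. Wdr74 stood at 2.85 scaled TPM in PC replicate 1 and at 17.8 to 20.5 in the others. The check was not run on the group of 3 MBC libraries, whose spread was the larger for most members.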

How the results depend on the processing

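With all 7 libraries no member was called under the main scaling, but 11 were called, all lower in PCs, with TPM as deposited (26.1% of all genes called lower) and 2, both lower, with quantile normalization. Leaving out each library gave 0 to 6 members called, the 6 only without MBC replicate 3. The members' median log2 fold change was -0.93 with TPM as deposited and ranged from -0.23 without MBC replicate 1 to 0.42 without MBC replicate 3. Over all genes 990 were called (742 higher, 248 lower), against 3490 with TPM as deposited (472 higher, 3018 lower), 824 with immunoglobulin genes removed (393 higher, 431 lower), 722 with mitochondrial and ribosomal RNA genes removed as well (433 higher, 289 lower), 1135 with quantile normalization (675 higher, 460 lower), 560 with no filter, and 549 (without PC replicate 2) to 2505 (without MBC replicate 3) when each library was left out. PC replicates 3 and 4 also moved this count by over 1.5 times when left out, to 631 and 591. Of the other ribosome biogenesis genes 0 were called, against 28 with TPM as deposited, 2 with immunoglobulin genes removed, 6 in the 5 libraries of the more frequent title prefix alone, 1 with title prefix as a term and 0 to 17 when each library was left out, the 17 without MBC replicate 3. In the libraries of the more frequent prefix 0 members were called and their median was 0.31. Counts over all genes in the prefix settings are not given here, so the prefix counts stand without a background. The other prefix holds 1 library per group, MBC replicate 3 and PC replicate 4, so leaving out MBC replicate 3 also leaves out its prefix among MBCs. The causes were not tested.

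Deviations of same-numbered libraries from their group means correlated at 0.109, -0.04 and -0.083, where the first pair also shares a title code. Libraries of the same code correlated at 0.109, -0.0044 and 0.222, and the labels do not say what the code marks. Pairs sharing neither number nor code ran from -0.176 to 0.152. With so few libraries per group these values cannot decide whether libraries were paired. A replicate block by number called 455 genes and a replicate block by title code 554, and no member or other ribosome biogenesis gene in either.

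Signs turned with TPM as deposited for Gnl3 (-0.034), Nop58 (-0.73), Nop10 (-0.082) and Ebna1bp2 (-0.083). Dkc1, at -0.01, turned to 0.093 in the more frequent prefix alone, 0.0575 with prefix as a term and 0.020 with the code block. When each library was left out, Dkc1 ranged from -0.49 (without MBC replicate 2) to 0.27 (without MBC replicate 3), Nop10 from -0.32 (without MBC replicate 1) to 1.77 (without MBC replicate 3), and Polr1b from -1.10 (without MBC replicate 1) to 0.34 (without MBC replicate 2). Of the named members' values under the alternatives, 329 kept their sign and their side of the threshold, 16 passed it newly and 14 turned. Members near a library's floor, 0.126 to 0.396 scaled TPM, are the least precise.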
